A study of Mus musculus with 10 samples.

Results

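*Hmox1*, *Nfe2l2*, *Keap1* and 7 other genes of the NRF2 pathway (*Slc7a11*, *Gclc*, *Gclm*, *Txnrd1*, *Srxn1*, *Nqo1* and *Osgin1*) were compared between neural retinas of mice under normal light (NL) and after light damage (LD). These 10 genes were taken by name from the 54532 genes of the RNA-seq table, and all 10 were among the 24508 genes tested. The retinas came from 2-month-old albino BALB/c mice, a strain without the pigment that screens the retina from light. According to the labels, both groups of mice spent 12 h in the dark and then 1 day under either 200 lux (NL, 5 retinas, numbered 1, 4, 5, 7 and 8) or 15000 lux (LD, 5 retinas, numbered 1, 4, 6, 7 and 8). No allele, transgene or drug is named for either group. The RNA-seq sampled 1 intensity and 1 duration of bright light, so that neither a dose nor a time course is available for these transcripts.

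NRF2, the protein encoded by *Nfe2l2*, is a transcription factor that is made continuously and, in unstressed cells, is bound by KEAP1, marked with ubiquitin and degraded. Oxidants and electrophiles modify reactive cysteines of KEAP1, NRF2 then accumulates, pairs with a small MAF protein and binds antioxidant response elements near genes for glutathione and thioredoxin metabolism, quinone reduction and heme breakdown. Because NRF2 is set largely at the level of the protein, its own transcript is a poor gauge of its activity, and none of the values here measures a protein. In the retina, photoreceptors combine a high oxygen demand with light-absorbing pigment and easily oxidized membranes, and this pathway is known as one of their defences.

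After LD, limma put 6 of the 10 genes higher at an adjusted p under 0.01, as were 9.3% of all genes tested. These were *Hmox1*, *Slc7a11*, *Osgin1*, *Txnrd1*, *Srxn1* and *Gclm*, and each of them had every LD retina above every NL retina, which 11.8% of all genes tested had. Of the 6, *Hmox1*, *Slc7a11* and *Osgin1* also passed 2-fold, against 4.13% of all genes tested. None of the 10 was lower at this threshold, by limma or by limma-voom on the recovered reads, and 0 of the 10 were lower at an unadjusted p under 0.05, where 8 were higher, against 19.1% of all genes tested in each direction. Among all genes tested, 7.74% fell, and 2.37% fell by more than 2-fold. The median log2 fold change of the 10 genes was 0.39, and that of all genes tested was -0.01. p-values here measure the spread between these retinas, since the labels do not say which retinas come from separate mice.

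The promoter sequences are shown because the members differ in which response elements lie near their start sites. RefSeq promoters, 250 bases before to 50 bases after a start site on GRCm38.p6, were matched for 8 of the 10 genes, with 10 promoters in all, and *Hmox1* and *Gclc* had no entry. Of 32851 mouse promoters of this length, 12.4% held the core of the antioxidant response element, searched as TGACNNNGC on both strands. An AP-1 motif, TGANTCA, was in 7.81%, and the amino acid response motif bound by ATF4 and C/EBP factors, TGATGNAA, was in 3.97%. A stretch can match both of the first 2 motifs, which share their first bases. The stretches below run 5′ to 3′ on the strand of the gene, with the motifs in capitals.
Nfe2l2: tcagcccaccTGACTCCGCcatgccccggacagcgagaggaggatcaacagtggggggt
Gclm: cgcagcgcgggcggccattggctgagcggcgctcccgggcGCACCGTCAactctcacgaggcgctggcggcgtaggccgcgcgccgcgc
Txnrd1: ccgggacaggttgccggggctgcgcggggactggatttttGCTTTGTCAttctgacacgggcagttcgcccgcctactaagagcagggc
Srxn1: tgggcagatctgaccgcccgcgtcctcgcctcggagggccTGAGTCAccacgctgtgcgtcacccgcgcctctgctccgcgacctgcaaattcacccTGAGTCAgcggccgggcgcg
Osgin1: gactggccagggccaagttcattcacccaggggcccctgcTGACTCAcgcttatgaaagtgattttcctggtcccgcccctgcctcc
Slc7a11: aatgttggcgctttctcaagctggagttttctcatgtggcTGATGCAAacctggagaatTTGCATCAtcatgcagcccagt

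Antioxidant response cores were found in *Nfe2l2* (chr2:75704855-75704913, minus strand), 240 to 232 bases before the start, in *Gclm* (chr3:122245383-122245471, plus strand), 134 to 126 bases before it, and in the second of 3 *Txnrd1* promoters (chr10:82859074-82859162, plus strand), 92 to 84 bases before it. In *Gclm* and *Txnrd1* the core is on the opposite strand, so that the capitals read as its reverse complement. *Srxn1* (chr2:152105382-152105498, plus strand) held AP-1 motifs 102 to 96 and 45 to 39 bases before the start. An antioxidant response core, not printed, lay at bases 29 to 37 after the start. With the bases that follow it, the nearer AP-1 motif reads TGAGTCAgc. This differs from the searched core, TGACNNNGC, only by TGAG in place of TGAC. *Osgin1* (chr8:119437010-119437096, plus strand) had an AP-1 motif 97 to 91 bases before the start. The *Slc7a11* stretch (chr3:50443639-50443719, minus strand) held 2 amino acid response motifs, 66 to 59 and 47 to 40 bases before the start, on opposite strands. *Keap1*, *Nqo1* and the other 2 *Txnrd1* promoters held none of the 3 motifs in this window. A match is a string of letters and not a measured binding site.

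*Nfe2l2* and *Keap1*, the regulator and its inhibitor, did not pass the threshold. *Nfe2l2* lies on chromosome 2 from 75675513 to 75704641 (GRCm38, minus strand), and its level was 6.74, 5.10, 5.83, 4.96 and 6.12 FPKM (sequenced fragments relative to gene length and library size) in NL-1, NL-4, NL-5, NL-7 and NL-8. In LD-1, LD-4, LD-6, LD-7 and LD-8 it was 7.61, 6.68, 6.09, 7.40 and 6.53 FPKM. NL-1 was higher than 3 of the LD retinas, and the groups overlap. Its log2 fold change on log2(FPKM + 0.1) was 0.26 (95% interval 0.05 to 0.47, adjusted p = 0.0700 in limma). With the values scaled as deposited, a rise of the transcript by more than 1.38-fold lies outside the interval.

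*Keap1*, on chromosome 9 from 21229730 to 21239361 (minus strand), was at 12.2, 13.1, 13.4, 14.1 and 12.9 FPKM in the NL retinas, given in the same order here and below. After LD it was at 13.9, 16.1, 15.9, 14.0 and 15.3 FPKM. LD-1 and LD-7 lie within the NL range and the other 3 LD retinas above it. The log2 fold change was 0.19 (95% interval 0.07 to 0.32, adjusted p = 0.0271 in limma), past 0.05 but not past 0.01. An antisense gene, *Gm16754*, overlaps *Keap1* with means of 1.64 FPKM under NL and 1.68 FPKM after LD, and whether reads were counted by strand is not given in the sources used here. The calls on *Nfe2l2* and *Keap1* depend on the scaling. Without the factor that the authors applied to each retina, which moves the median of all genes by 0.12 on the log2 scale, their log2 fold changes were 0.39 (adjusted p = 0.00853) and 0.33 (adjusted p = 0.00220) in limma.

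*Hmox1*, on chromosome 8 from 75093621 to 75100589 (plus strand), encodes heme oxygenase 1, the inducible enzyme that opens the heme ring to give biliverdin, carbon monoxide and iron. It was at 1.71, 1.69, 1.52, 1.45 and 1.99 FPKM in the NL retinas and at 13.0, 13.4, 13.8, 14.8 and 14.6 FPKM in the LD retinas. The lowest LD retina was 6.50 times the highest NL retina. The log2 fold change was 2.99 (95% interval 2.80 to 3.17, adjusted p = 7.91e-09 in limma), a 7.93-fold rise. It held the 150th place among all genes tested by the size of the increase and the 9th by p-value. No alternative of the 24 that gave a value for it ended the call.

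**Figure D1:**
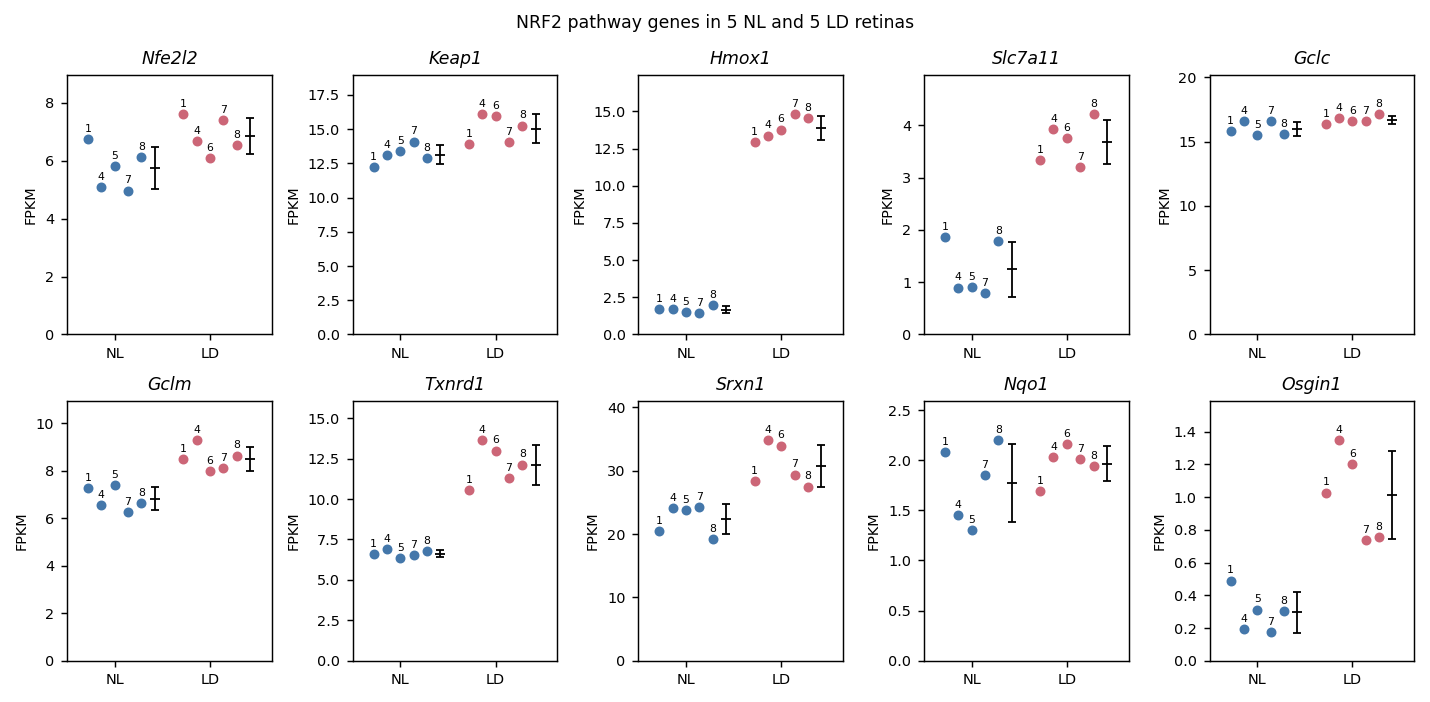
Level of each of the 10 genes in FPKM (y axis, from 0) in the 5 NL retinas (blue) and the 5 LD retinas (red), with the retina number above each point and the mean and SD as a bar. *Hmox1* goes from 1.45 to 1.99 FPKM under NL to 13.0 to 14.8 FPKM after LD, whereas the groups of *Nfe2l2*, *Keap1*, *Gclc* and *Nqo1* overlap.

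The constitutive isoenzyme gene *Hmox2* gave a reference within the same retina. *Hmox2* was at 17.8, 19.0, 17.2, 18.7 and 16.2 FPKM under NL and at 16.1, 19.1, 17.8, 15.7 and 18.2 FPKM after LD, with a log2 fold change of -0.03 (adjusted p = 0.766 in limma). The ratio of *Hmox1* to *Hmox2* went from a mean of 0.0937 under NL to 0.800 after LD. On the log2 scale, the ratio went from -3.42 ± 0.246 to -0.32 ± 0.154 (SD, n = 5 each), with no overlap (exact two-sided permutation test, p = 0.00794, which is the lowest possible for 5 against 5, and 0.0106 adjusted over 4 ratios). The adjusted value, above the 0.01 asked of single genes, is shared by 3 of the 4 ratios.

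Of the other 7 genes of heme breakdown and iron handling in the list of 8 that holds *Hmox2*, 1 rose, *Ftl1*, a share near the 9.3% of all genes tested. None of the 8 fell by limma or limma-voom. At an unadjusted p under 0.05 there were 0 lower and 2 higher, against 19.1% of all genes tested in each direction. *Ftl1* encodes the ferritin light chain, which stores the kind of iron that heme oxygenase releases. Its level was 76.7, 75.5, 85.5, 74.6 and 69.7 FPKM under NL and 110, 216, 221, 116 and 144 FPKM after LD, 1.02 ± 0.19 (SE) higher on the log2 scale (limma, adjusted p = 0.00289). LD-4 and LD-6 were about 2 times LD-1. Reads of *Ftl1* can also match its near-identical pseudogenes, so that its counts are uncertain. The median log2 fold change of the list was 0.07. In 4 alternatives, 3 of which leave out retinas and 1 of which averages them, *Ftl1* did not pass (adjusted p up to 0.0247, lowest over all alternatives 0.00121).

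*Slc7a11* encodes xCT, the cystine carrier that supplies the cysteine for glutathione, and lies on chromosome 3 from 49892526 to 50443614 (minus strand). Its levels were 1.87, 0.896, 0.902, 0.785 and 1.78 FPKM under NL and 3.33, 3.93, 3.75, 3.20 and 4.21 FPKM after LD. Under NL the retinas fall apart into NL-1 and NL-8, near 1.8 FPKM, and the other 3, near 0.9 FPKM, and every LD retina was above them all. Behind these NL values stood 232 to 265 reads in the 3 lower retinas against 556 and 639 reads. LD exceeded NL by 1.57 ± 0.24 (SE) on the log2 scale (limma, adjusted p = 6.40e-04). Without NL-1 and NL-8, a choice made after their values were seen, it was 1.97. With the 3 most alike pairs of retinas averaged, which leaves 4 NL and 3 LD samples, limma gave an adjusted p of 0.0134, and the alternatives ranged from 1.93e-05 to 0.0147.

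NL-1 and NL-8 were also the 2 highest NL retinas for *Hmox1*, *Nfe2l2* and *Nqo1*, so that 4 of the 10 genes share this order. They were the 2 lowest NL retinas for *Keap1* and *Srxn1*. The same retinas had the highest summed level of 8 pigment epithelium markers under NL, 95.8 and 149.7 FPKM, where NL-4, NL-5 and NL-7 had 54.7 to 74.9 FPKM. After LD the sum was 64.1 to 124.3 FPKM, and 0 of the 8 markers passed in limma, with 2 higher and 1 lower at an unadjusted p under 0.05. Under NL most of the sum was *Ttr*, at 57.2 and 97.8 FPKM in NL-1 and NL-8 and 35.8 to 52.7 FPKM in the others. *Nupr1* (4.07 and 3.59 against 0.549 to 0.674 FPKM) and *Atf5* (21.2 and 25.5 against 11.5 to 13.3 FPKM) split likewise. Both are ATF4 targets of a list below, named here after their values were seen, and *Asns* of that list did not split. The parts of carried-over epithelium and of ATF4 in these values were not tested. NL-7, with the lowest sum, was the lowest NL retina for 5 of the 10 genes and the highest for *Keap1* and *Srxn1*.

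The partner of xCT in the membrane is the heavy chain encoded by *Slc3a2*, which rose less. *Slc3a2* was at 37.7, 35.2, 36.2, 34.2 and 38.6 FPKM under NL and at 53.8, 64.7, 66.5, 52.9 and 65.0 FPKM after LD, 0.73 ± 0.07 (SE) higher on the log2 scale (limma, adjusted p = 5.15e-05). The log2 ratio of *Slc7a11* to *Slc3a2* was -4.97 ± 0.534 under NL and -4.04 ± 0.0726 after LD (SD, n = 5 each), higher by 0.93 (two-sided exact permutation test, p = 0.00794, 0.0106 adjusted over 4 ratios). In the LD retinas the ratio was nearly the same in all 5, and the wide NL spread came from NL-1 and NL-8.

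*Gclc* and *Gclm* encode the catalytic and the modifier subunit of glutamate-cysteine ligase, which makes the first step of glutathione synthesis. *Gclc*, on chromosome 9 from 77754535 to 77794485 (plus strand), was at 15.8, 16.6, 15.5, 16.6 and 15.6 FPKM under NL and at 16.4, 16.9, 16.6, 16.6 and 17.1 FPKM after LD. *Gclm*, on chromosome 3 from 122245557 to 122270732 (plus strand), was at 7.26, 6.54, 7.38, 6.24 and 6.64 FPKM under NL and at 8.47, 9.27, 7.98, 8.10 and 8.63 FPKM after LD. *Gclc* overlaps between the groups and had the smallest difference of the 10 genes, while *Gclm* does not overlap. Their log2 fold changes were 0.06 for *Gclc* (95% interval -0.02 to 0.14, adjusted p = 0.248 in limma) and 0.31 for *Gclm* (95% interval 0.18 to 0.45, adjusted p = 0.00347).

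The log2 ratio of *Gclm* to *Gclc* went from -1.24 ± 0.143 to -0.98 ± 0.0761 (SD, n = 5 each), a difference of 0.26 that does not depend on the scaling of the libraries (two-sided exact permutation test, p = 0.00794, 0.0106 adjusted over 4 ratios). NL-5, at -1.07, and LD-6, at -1.06, almost touch. Of the 2 single calls, that on *Gclm* was lost by a small margin without NL-8, and also without both NL-1 and NL-8 and with the most alike pairs averaged, and its adjusted p was 3.12e-04 to 0.0226 over the alternatives in limma. *Gclc* passed without the factor per retina (adjusted p = 0.00289) and as TPM (adjusted p = 0.00849). *Gm17494*, on the opposite strand of *Gclm*, had means of 1.03 FPKM under NL and 1.19 FPKM after LD.

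**Figure D2:**
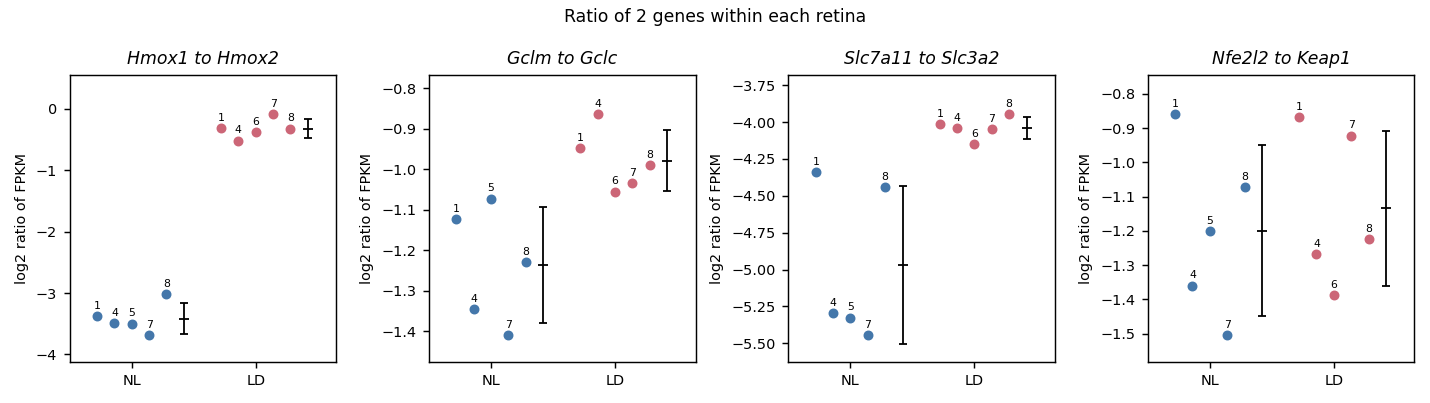
Log2 ratio of the FPKM of 2 genes within each retina (y axis, a separate scale in each panel) for the 5 NL retinas (blue) and the 5 LD retinas (red), with retina numbers, means and SD bars. The ratios of *Hmox1* to *Hmox2*, *Gclm* to *Gclc* and *Slc7a11* to *Slc3a2* do not overlap between the groups, and that of *Nfe2l2* to *Keap1* does.

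For *Nfe2l2* and *Keap1*, the ratios of the groups overlap. Their log2 ratio was -1.20 ± 0.250 under NL and -1.13 ± 0.227 after LD (SD, n = 5 each), a difference of 0.07 with a standard error of 0.15 (two-sided exact permutation test, p = 0.675). NL-1, LD-1 and LD-7 had the highest ratios, so that the order ran across the groups.

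In the thioredoxin branch, *Txnrd1* encodes the cytosolic thioredoxin reductase and *Srxn1* encodes sulfiredoxin, which restores overoxidized peroxiredoxins. *Txnrd1*, on chromosome 10 from 82833951 to 82897712 (plus strand), was at 6.57, 6.89, 6.37, 6.51 and 6.78 FPKM under NL and at 10.6, 13.6, 13.0, 11.3 and 12.1 FPKM after LD. Its NL values varied by only 3.17% (SD over mean), the least of the 10 genes, and the lowest LD retina was 1.53 times the highest NL retina. LD exceeded NL by 0.86 ± 0.07 (SE) on the log2 scale (limma, adjusted p = 9.08e-06), under 2-fold, and the call held in all 24 alternatives. *Eid3* lies within the locus on the same strand, with means of 0.689 FPKM under NL and 0.896 FPKM after LD.

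*Srxn1*, on chromosome 2 from 152105516 to 152111376 (plus strand), was the most abundant of the 10 genes per length. It was at 20.5, 24.1, 23.7, 24.3 and 19.2 FPKM under NL and at 28.3, 34.8, 34.0, 29.4 and 27.5 FPKM after LD. The groups do not overlap, and NL-8 and LD-8 were the lowest of their groups. LD exceeded NL by 0.46 ± 0.09 (SE) on the log2 scale (limma, adjusted p = 0.00330). *Srxn1* lost its call in 3 alternatives with fewer samples (adjusted p of 0.0165 without NL-5 and LD-6, 0.0216 without NL-1 and NL-8, and 0.0267 with the most alike pairs averaged, in a range from 7.86e-04).

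*Nqo1* and *Osgin1* complete the 10 genes. *Nqo1*, on chromosome 8 from 107388225 to 107403206 (minus strand), encodes a quinone reductase that is often used as a readout of NRF2. It was at 2.08, 1.46, 1.30, 1.85 and 2.20 FPKM under NL and at 1.69, 2.03, 2.16, 2.01 and 1.94 FPKM after LD. NL-8 had the highest level of all 10 retinas, and no LD retina was above it. The log2 fold change was 0.16 (95% interval -0.17 to 0.49, adjusted p = 0.476 in limma). With the values scaled as deposited, a rise of more than 1.40-fold lies outside the interval. The log2 fold change was 0.29 without the factor per retina and 0.35 without NL-1 and NL-8, neither of them called. Behind these values stood 41 to 88 reads per retina.

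*Osgin1*, on chromosome 8 from 119434124 to 119446256 (plus strand), encodes a growth inhibitor induced by oxidative stress. Its level was the lowest of the 10 genes, at 0.490, 0.194, 0.313, 0.176 and 0.304 FPKM under NL and at 1.03, 1.35, 1.20, 0.739 and 0.756 FPKM after LD. Only 10 to 28 reads stood behind each NL value and 45 to 73 reads behind each LD value, and the groups do not overlap. LD exceeded NL by 1.52 ± 0.25 (SE) on the log2 scale (limma, adjusted p = 0.00122). It was 0.63 with a pseudocount of 1, and the call was lost with the most alike pairs averaged (adjusted p = 0.0170) and without NL-5 and LD-6 (adjusted p = 0.0107, range over the alternatives 5.61e-04 to 0.0288).

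**Figure D3:**
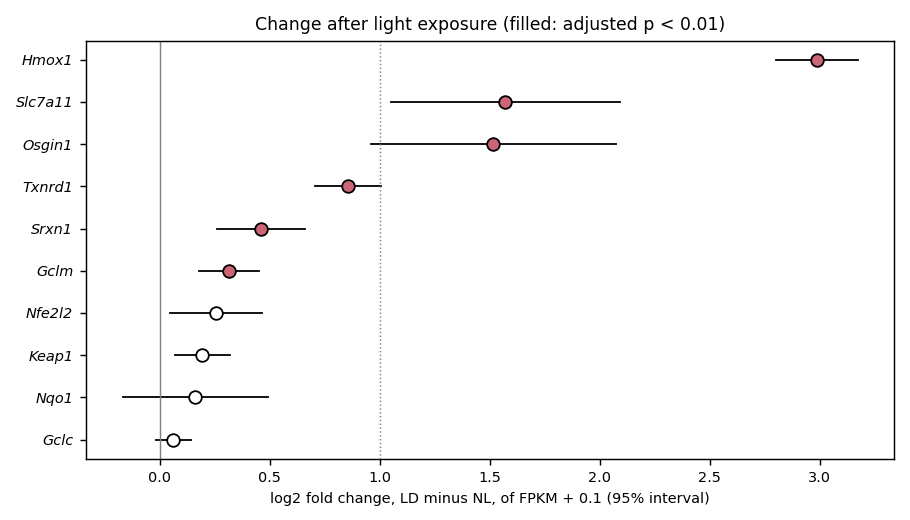
Log2 fold change of each gene (x axis, LD minus NL, on log2(FPKM + 0.1)) with its 95% interval from limma, sorted by size. Filled points passed an adjusted p of 0.01, the dotted line marks 2-fold, and *Hmox1*, at 2.99, stands apart from *Slc7a11*, at 1.57, and *Osgin1*, at 1.52.

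By level, which FPKM allows to be compared between genes, the order under NL was *Srxn1* (mean 22.4 FPKM), *Gclc* (16.0), *Keap1* (13.1), *Gclm* (6.81), *Txnrd1* (6.63), *Nfe2l2* (5.75), *Nqo1* (1.78), *Hmox1* (1.67), *Slc7a11* (1.25) and *Osgin1* (0.295). The retinas of *Gclm* and *Txnrd1* overlap, as do those of *Txnrd1* and *Nfe2l2*, of *Nqo1* and *Hmox1*, and of *Hmox1* and *Slc7a11*, so that these neighbours were not told apart. After LD the order was *Srxn1* (30.8 FPKM), *Gclc* (16.7), *Keap1* (15.0), *Hmox1* (13.9), *Txnrd1* (12.1), *Gclm* (8.49), *Nfe2l2* (6.86), *Slc7a11* (3.68), *Nqo1* (1.97) and *Osgin1* (1.01). *Hmox1* moved from the eighth place to the fourth, where its retinas overlap those of *Keap1* and *Txnrd1*, and *Slc7a11* passed *Nqo1*.

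Within the LD group the genes did not share 1 order of retinas. LD-4 and LD-6 were the 2 highest LD retinas for *Keap1*, *Nqo1*, *Srxn1*, *Txnrd1* and *Osgin1*, and LD-1 and LD-7 were the 2 highest for *Nfe2l2*. *Hmox1* was highest in LD-7 and LD-8, and LD-1 was the lowest LD retina for 5 of the 10 genes. LD-4 and LD-6 are also 1 of 3 pairs, with LD-1 and LD-7 and with NL-5 and NL-7, whose reads were closer to each other (chi-square per gene 2.52 to 3.41) than any other pair of a group (10.9 to 38.5). Retinas or libraries of 1 mouse could be that close, and if they are, n = 5 per group is too many. With these pairs averaged, 2 of the 10 genes, *Hmox1* and *Txnrd1*, kept an adjusted p under 0.01.

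Cell type markers moved with the light too. The summed level of 10 rod markers was 9834 to 11991 FPKM under NL and 1554 to 2989 FPKM after LD. Of these, 10 of 10 fell, against 7.74% of all genes tested. LD-4 and LD-6 had the lowest rod sums, 1554 and 1647 FPKM. The 10 Müller glia markers summed to 1549 to 1850 FPKM under NL and 1061 to 1405 FPKM after LD. Of these, 2 were higher (*Vim* and *Sox9*) and 1 lower, against 9.3% and 7.74% of all genes tested. Their median log2 fold change was 0.04. The lower sum came with *Glul*, glutamine synthetase, which fell from a mean of 711 to 165 FPKM. The other 9 summed to 916 to 1025 FPKM under NL and 896 to 1234 FPKM after LD. From the RNA of whole retinas alone, fewer cells of a type and less RNA per cell cannot be told apart. In sections of retinas exposed for 1 day, the paper saw no obvious degeneration. The part of the lower rod transcripts in the rises was not tested.

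Macrophages are known for high *Hmox1*. The 12 microglia and macrophage markers summed to 10.9 to 14.1 FPKM under NL and 18.3 to 36.4 FPKM after LD. Of the 10 tested, 7 rose, against 9.3% of all genes tested. *Cd163* and *Mrc1*, which mark scavenger macrophages, were too low to be tested. At an unadjusted p under 0.05 in limma, 8 markers were higher and 1, *P2ry12*, was lower (log2 fold change -0.74). LD-8 had the lowest sum after LD, 18.3 FPKM, and *Hmox1* was 14.6 FPKM in it, above 3 of the other LD retinas. LD-1, with the highest sum of 36.4 FPKM, had the lowest *Hmox1* level after LD. LD-7, with the second highest sum of 33.6 FPKM, had the highest *Hmox1* level, 14.8 FPKM, and the sums of LD-4 and LD-6 were 24.9 and 25.8 FPKM. Of 5 red blood cell markers, 4 were tested and 0 passed in limma in either direction, with 0 higher and 3 lower at an unadjusted p under 0.05. Their sum was 18.3 to 37.5 FPKM under NL and 8.38 to 24.5 FPKM after LD. *Hba-a2* was listed at 0 in all retinas. The 6 endothelial markers summed to 39.9 to 50.9 FPKM under NL and 55.4 to 90.6 FPKM after LD. Of these, 1 was higher, against 9.3% of all genes tested, and 5 were not called. Most of the sum was *Kdr*, the 1 called, at 27.1 to 37.1 FPKM under NL and 38.1 to 64.4 FPKM after LD. The part of these cell types in the values of *Hmox1* was not tested.

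Of 14 regulators and partners of NRF2, 4 rose and 1 fell, against 9.3% and 7.74% of all genes tested. The largest change was that of *Maff*, a small MAF protein with which NRF2 can pair, which went from 0.703, 0.799, 0.608, 1.05 and 0.553 FPKM under NL to 3.08, 3.25, 3.62, 3.08 and 3.31 FPKM after LD. LD exceeded NL by 2.03 ± 0.15 (SE) on the log2 scale (limma, adjusted p = 6.06e-06), and by 1.30 with a pseudocount of 1. *Mafk*, another small MAF gene, rose from 2.60 ± 0.436 to 4.42 ± 0.348 FPKM (SD, n = 5 each), by 0.75 on the log2 scale (limma, adjusted p = 5.67e-04), and lost its call with the most alike pairs averaged (adjusted p = 0.0140). *Mafg*, the most abundant of the 3 small MAF genes under NL with a mean of 24.1 FPKM, had a log2 fold change of 0.17 and an adjusted p of 0.127 in limma.

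*Sqstm1*, whose product p62 binds KEAP1 and directs it to autophagy, rose from 64.6 to 77.2 FPKM under NL to 82.1 to 118 FPKM after LD, 0.50 ± 0.10 (SE) higher on the log2 scale (limma, adjusted p = 0.00455). Its call was lost in 11 of 24 alternatives, among them those without LD-4, LD-6, LD-8, NL-1, NL-5, NL-7 or NL-8, with adjusted p-values up to 0.0401 (lowest 0.00107). *Dpp3*, another KEAP1 binder, named here after its value was seen, had a log2 fold change of 0.22 (adjusted p = 0.00611). *Btrc*, which encodes a ubiquitin ligase subunit that marks NRF2 independently of KEAP1, fell by 0.36 on the log2 scale (adjusted p = 3.48e-04), from 13.6 to 15.2 FPKM under NL to 10.6 to 12.1 FPKM after LD. *Cul3* and *Rbx1*, the ligase that KEAP1 recruits, gave log2 fold changes of 0.00 and -0.05, and *Bach1*, the repressor of *Hmox1*, gave 0.14 (adjusted p = 0.286 in limma).

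Of 31 other known NRF2 targets, 29 were tested, 4 rose and none fell in limma, and 5 rose and none fell with limma-voom on the recovered reads. The 4 of 29, or 13.8%, lie near the 9.3% of all genes tested. At an unadjusted p under 0.05, 12 of the 29 were higher and 2 lower, against 19.1% of all genes tested in each direction. The aldo-keto reductase gene *Akr1b8* went from 0.374, 0.283, 0.394, 0.471 and 0.310 FPKM under NL to 2.35, 1.97, 1.91, 1.96 and 2.55 FPKM after LD, 2.27 ± 0.15 (SE) higher on the log2 scale (limma, adjusted p = 2.66e-06). Its NL values rest on 9 to 15 reads, and with a pseudocount of 1 the difference was 1.20. Next to *Slc3a2*, the others were *Txn1*, thioredoxin, at 33.0 ± 1.66 and 44.9 ± 5.41 FPKM, and *Prdx1*, a peroxiredoxin, at 24.6 ± 0.713 and 32.3 ± 3.76 FPKM (SD, n = 5 each, NL first). Their log2 fold changes were 0.44 (adjusted p = 0.00195) and 0.38 (adjusted p = 0.00304), and both calls were lost with the most alike pairs averaged (adjusted p up to 0.0319 and 0.0350 over all alternatives).

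By branch, 2 of 3 thioredoxin genes rose, 1 of 5 glutathione genes, 1 of 15 quinone and xenobiotic genes and 0 of 6 genes of NADPH supply, of which 1 was higher and 2 were lower at an unadjusted p under 0.05 in limma. The median log2 fold change of the 29 genes was 0.20. Under the other scalings the list had 4 to 9 genes higher and none lower.

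**Figure D4:**
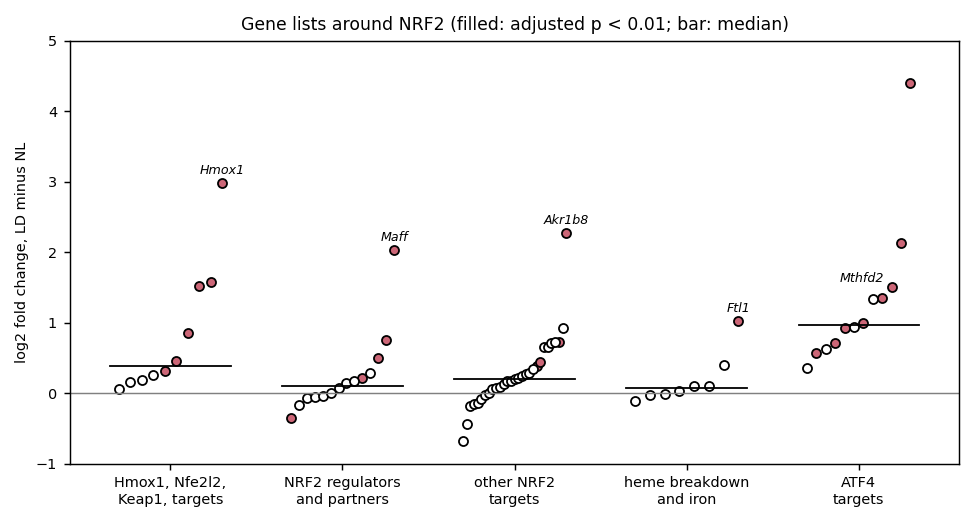
Log2 fold change (y axis, LD minus NL) of the tested genes of 5 lists, 1 point a gene sorted within its list, filled where the adjusted p was under 0.01, with the median as a bar. The 10 genes have a median of 0.39, the regulators and partners 0.11, the other targets 0.20, heme breakdown and iron 0.07 and the ATF4 targets 0.97.

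*Slc7a11* is also a known target of ATF4, the factor of the amino acid response, and 12 other ATF4 targets were set beside it. Of these, 8 rose, 4 of them by more than 2-fold, against 9.3% and 4.13% of all genes tested, and none fell. All 12 were higher at an unadjusted p under 0.05, which 19.1% of all genes tested were, with a median log2 fold change of 0.97. *Asns*, asparagine synthetase, rose from 10.1 ± 0.441 to 26.0 ± 2.33 FPKM (SD, n = 5 each), 1.35 ± 0.06 (SE) higher on the log2 scale (limma, adjusted p = 1.79e-07). *Mthfd2* and *Shmt2*, enzymes of mitochondrial folate metabolism, had log2 fold changes of 1.50 and 0.58, and *Slc7a5*, another light chain that pairs with *Slc3a2*, had 0.99. The 4 calls held in all 24 alternatives. The part of ATF4 in the rise of *Slc7a11* was not tested.

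The tested protein-coding genes whose levels followed *Hmox1* most closely were *Lamp2*, *Parp12*, *Trim21*, *Ifit3b* and *Lif*, with Pearson r of 0.998 for *Lamp2*, the first, over the 10 retinas. Among 12679 candidates, 1144 had r over 0.9, since any gene with a large step between the groups scores high, and the retinas share their group. *Parp12*, *Trim21* and *Ifit3b* are known as interferon-induced genes, and *Lif* encodes a cytokine. *Lamp2* encodes a lysosomal membrane protein, and it rose from 9.10 ± 0.445 to 22.1 ± 0.353 FPKM (SD, n = 5 each). Of the other 9 NRF2 pathway genes, *Txnrd1* was closest to *Hmox1* (r = 0.975), followed by *Slc7a11* (0.927) and *Osgin1* (0.903), and *Nqo1* was farthest (0.394).

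Depth was 21343389 to 26832535 reads under NL, highest in NL-8, and 18965090 to 23378090 reads after LD. Under the other scalings all 10 genes kept a positive log2 fold change, with 6 of them higher after quantile normalization and with limma-voom, 8 as TPM and 9 without the factor per retina. Under the last 2, the median of all genes moved by 0.10 and 0.12 on the log2 scale.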

How the data were processed

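RNA-seq of 10 BALB/c neural retinas was analysed from 1 deposited table. The authors extracted RNA with TRIzol and had it sequenced (paired ends, 150 bases) by a company that normalized the values; paper and labels name different Illumina instruments. The submitters' processing notes name TopHat2 2.0.9, Bowtie2 2.0.6 and build mm8, but positions in the table are on GRCm38 (53585 of 54532 genes as in GENCODE M21). Strand use in counting is not given in the sources used here. The authors deposited FPKM, scaled to library size with factors of 0.951 to 0.968 (NL) and 1.041 to 1.069 (LD), and whole reads were recovered for 100% of values (within 0.1 read). The factors shift the median of all genes by 0.12 on the log2 scale, which can take small changes across the threshold.

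From these, log2(FPKM + 0.1) was compared with limma 3.58.1 (R 4.3.3, intensity trend, Benjamini-Hochberg) after a filter of 0.1 FPKM in 5 or more retinas. "Rose" and "fell" mean an adjusted p under 0.01, and the fold minimum of 2 follows the paper. Limma was tested on simulated data. Ratios were compared by exact permutation tests (scipy 1.17.1) at an adjusted p of 0.05. Members, lists, tests and alternatives were chosen with earlier results of these data known. Genes named are the 10 members, their ratio partners, up to 4 called genes per list with the smallest adjusted p, and the 5 genes closest to *Hmox1*. Of *Ddit3*, listed 2 times, the expressed entry was used. A few genes outside this rule are named for background or as exceptions, after their values were seen. A marker gene is not reported here and was left out of its list.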

Additional observations from a re-analysis of the deposited data

Results flagged for a closer look

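Among 40 groups of 5 values (the 10 genes, 4 ratios and 6 marker sums, each under NL and after LD), 1 held an outlying retina, and chance alone gives about 2. The summed level of microglia and macrophage markers was 14.1 FPKM in NL-1, against 11.3 FPKM in the next NL retina. It was below the lowest LD retina (18.3 FPKM), and *Hmox1* in NL-1, at 1.71 FPKM, was the second highest of the NL retinas.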

How the results depend on the processing

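Of 24 other settings, none reversed a called gene, and *Hmox1* and *Txnrd1* passed in all. The number of the 10 genes higher was 6. It was 2 with the most alike pairs averaged, 4 without NL-1 and NL-8 (chosen after the values were seen) and 5 to 6 with 1 retina left out, where the loss of *Gclm* without NL-8 gave the 5. Above 2-fold it was 3, with 1 retina left out also 3, 1 with the pairs averaged, and 7 at an adjusted p under 0.05 with no fold minimum. For these settings the cause was not tested, but fewer samples enter the first 3. Over all genes, 1013 were higher and 582 lower by more than 2-fold at an adjusted p under 0.01. These became 664 higher with at least 1 FPKM in 5 retinas, 504 and 312 with a pseudocount of 1, 3543 and 3275 at an adjusted p under 0.05 with no fold minimum, 366 lower with the pairs averaged, and 369 lower over the 8 retinas with shared numbers. With 1 retina left out they were 818 to 979 and 459 to 612. With at least 1 FPKM in 5 retinas *Osgin1* was not tested.

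Both groups share the numbers 1, 4, 7 and 8. Deviations of same-numbered retinas had r of -0.0893 to 0.0656 over 4 pairs, so the numbers were not taken as pairing. With the number as a replicate block over these 8 retinas, 3 of the 10 genes were higher (4 without the block), 1 above 2-fold, and over all genes 550 were higher and 258 lower by more than 2-fold. With the block, *Gclm*, *Slc7a11*, *Osgin1*, *Btrc*, *Mafk*, *Sqstm1*, *Txn1*, *Prdx1* and *Ftl1* lost their calls (adjusted p from 0.0101 for *Btrc* to 0.0319 for *Txn1*). As paired differences, the log2 ratios of *Hmox1* to *Hmox2*, *Gclm* to *Gclc* and *Slc7a11* to *Slc3a2* were 3.09, 0.32 and 0.87, each with an adjusted p of 0.167 by an exact permutation test, whose smallest unadjusted p with 4 pairs is 0.125.

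Depth limits *Osgin1* and *Nqo1* most, with as few as 10 and 41 reads in a retina.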

Other observations

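Of the other NRF2 targets, 7 had an adjusted p between 0.01 and 0.05 in limma, 5 higher and 2 lower, and they are named here after their values were seen. *Abcc1*, an exporter of glutathione conjugates, and *Cbr3*, a carbonyl reductase, went from 5.17 ± 0.576 to 8.44 ± 2.43 FPKM and from 2.44 ± 0.421 to 3.96 ± 1.04 FPKM (SD, n = 5 each), with adjusted p-values of 0.0197 and 0.0198 in limma and no overlap between the groups. *Gstm1* and *Ephx1*, genes of glutathione conjugation and epoxide hydrolysis, went from 6.91 ± 1.58 to 11.4 ± 2.65 FPKM and from 4.59 ± 1.42 to 7.55 ± 1.72 FPKM (SD, n = 5 each), with adjusted p-values of 0.0130 and 0.0282 in limma, and the groups of both overlap. The NADPH-producing enzyme genes *Pgd* and *Idh1* had log2 fold changes of 0.20 (adjusted p = 0.0217 in limma) and -0.15 (adjusted p = 0.0292), also with overlap. *Me1*, which encodes the NADPH-producing malic enzyme, had a mean of 30.2 ± 6.12 FPKM in NL and 19.2 ± 5.11 FPKM in LD retinas, a log2 fold change of -0.67 with an adjusted p of 0.0200 in limma. Its groups overlap, since the highest LD retina (25.9 FPKM) was above the lowest NL retina. Among the ATF4 targets, *Nupr1* had the highest log2 fold change of its list, 4.40 ± 0.60 (SE, adjusted p = 3.46e-04 in limma), from 1.89 ± 1.78 to 32.2 ± 14.7 FPKM.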
